A study of Arabidopsis thaliana with 8 samples.

Results

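RNS1 (AT2G02990), RNS2 (AT2G39780) and RNS3 (AT1G26820) are genes of the RNase T2 family in Arabidopsis thaliana. They were taken by identifier as 3 of the 32678 gene rows of the count tables, and all 3 passed the filter on low counts that left 20585 genes, RNS1 through its 5 libraries with high levels. The genes were chosen by the salt response of RNS1, which stood at the top of an earlier fit of these same libraries. The salt response of the 3 genes is therefore given as a description, without a test. RNA from whole plants was sequenced in 8 libraries, 1 for each of 4 lines at 75 and at 0 mM NaCl. T31-5 and T43-11, each a single line, carried an artificial transcription factor named 3F-VP16 and are labelled salt tolerant. The empty vector line expressed only VP16, a viral activation domain, and Col-0 was the untransformed wild type. The sources used here do not give the promoter of the transgenes, the age of the plants, the time in salt or the number of plants per library.

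RNase T2 enzymes are endoribonucleases of the secretory pathway, found in organisms from bacteria to animals, that cut single-stranded RNA with little preference for sequence. RNS1 is known as a secreted enzyme whose transcript accumulates on phosphate starvation and on wounding, and RNS2 as the housekeeping enzyme of vacuole and endoplasmic reticulum that degrades ribosomal RNA. RNS3 has been linked to senescence. RefSeq annotates a further pair of family members, AT1G14210 and AT1G14220, without gene names.

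Whole libraries set limits on every comparison of lines. Gene reads ranged from 13007480 in Col-0 at 75 mM to 22820814 in T31-5 at 75 mM, and 3 reads, the limit a count of 0 allows, correspond to 0.131 to 0.231 CPM, the counts scaled to library size. The libraries of T43-11 at 75 and 0 mM were close to each other, with a mean chi-square per gene of 1.42, where sampling noise alone gives a value near 1. T31-5 and the empty vector line were as close at 0 mM, with 1.44, so that they may not be separate replicates there. T43-11 at 0 mM had 4.35 and 5.00 against T31-5 and the empty vector line at 75 mM. Against these lines at 0 mM it had 52.2 and 47.3. Against Col-0 it had 21.5 at 75 mM and 81.5 at 0 mM. An added row named T43 had 32.5 to 33.6 CPM in T43-11, whereas an added row named T31 had 2.94 to 4.88 CPM in T31-5, 26.8 to 27.7 CPM in T43-11 and 3.12 to 4.44 CPM in the empty vector line. This second row did not separate T31-5 from the empty vector line, and T31-5 and T43-11 below stand for the libraries so labelled. Of leaf and root markers, the Rubisco gene RBCS1A had 9138 to 14513 CPM and the root glucosidase gene PYK10 had 1190 to 2216 CPM. The other root markers were much lower, with 8.66 to 58.4 CPM for HRGP1, 1.86 to 5.72 CPM for PIP2;4 and 0.616 to 2.46 CPM for RHD6. Floral and seed storage markers were low too (at most 17.4 CPM for PI and 0.15 CPM for CRA1).

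The sequence upstream of RNS1 is shown because this gene had by far the widest range among the 3, and that of RNS3 for comparison with a member of a similar level. Each covers the 300 bases before the annotated transcript start in RefSeq assembly TAIR 10.1 (RNS1, chr2:873206-873505, + strand; RNS3, chr1:9293863-9294162, - strand), and each is printed along the gene's own strand. Reads had been counted on TAIR10, and the gene identifier is the only link between the counts and this assembly. Capitals mark every match to 4 motifs on either strand, of which 1 occurred in these windows.
RNS1: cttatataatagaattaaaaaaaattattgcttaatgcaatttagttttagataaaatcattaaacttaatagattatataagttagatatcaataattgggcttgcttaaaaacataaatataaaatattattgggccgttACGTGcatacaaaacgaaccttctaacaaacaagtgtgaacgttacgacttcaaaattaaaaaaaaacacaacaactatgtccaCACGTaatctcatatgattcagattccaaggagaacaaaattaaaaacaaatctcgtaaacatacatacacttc
RNS3: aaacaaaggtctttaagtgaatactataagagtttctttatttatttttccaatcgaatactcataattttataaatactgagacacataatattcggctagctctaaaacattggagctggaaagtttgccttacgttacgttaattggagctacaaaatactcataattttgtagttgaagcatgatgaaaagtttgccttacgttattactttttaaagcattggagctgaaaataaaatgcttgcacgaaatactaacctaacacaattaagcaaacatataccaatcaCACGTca

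The capitals in both windows are the core of the abscisic acid response element, ACGTG, or its reverse complement. RNS1 had 2 matches, starting at -158 and -74 from the transcript start, and RNS3 had 1, at -7. Of 27443 windows of the same length before nuclear protein-coding genes, 25.6% held this core. The dehydration and cold response core CCGAC, present in 13.9% of all windows, the W-box core TTGAC, present in 50.4%, and GNATATNC, which binds the phosphate starvation regulator PHR1 and was present in 6.50%, had no match in either window. The marked matches did not overlap other motifs. The window before RNS2 reaches into the neighbouring gene CYT1 and is not printed. It held 1 match to GNATATNC, at -171, and none to the others.

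RNS1 was nearly silent without salt in T31-5, the empty vector line and Col-0, and clearly transcribed in the other 5 libraries. In T31-5 it had 107 reads (4.42 CPM, 95% Poisson interval 3.62 to 5.34) at 75 mM and 6 reads (0.286 CPM) at 0 mM. In the empty vector line it had 217 reads (9.52 CPM, 8.29 to 10.9) at 75 mM and 1 read (0.0555 CPM, below the 3-read limit) at 0 mM. In Col-0 it had 172 reads (13.3 CPM, 11.4 to 15.4) at 75 mM and 9 reads (0.462 CPM) at 0 mM. All 3 salt-treated libraries of these lines thus lay far above their unsalted partners, and the counting intervals do not touch. In T43-11 the gene had 163 reads (7.42 CPM, 6.32 to 8.65) at 75 mM and 155 reads (7.99 CPM, 6.78 to 9.35) at 0 mM. T43-11 therefore stood near the salt-treated level of the other lines in both of its libraries. Over all genes, too, its unsalted library was closer to the salt-treated libraries of the other lines than to their unsalted ones. CPM are scaled by TMM factors, and the intervals cover counting error only.

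The 5 high libraries of RNS1 did not overlap the 3 low ones, a split shared by 22.9% of the 14797 genes that average 5 CPM or more. RNS1 differed from most of these genes in how far apart the levels lay. The ratio of CPM at 75 over 0 mM was 15.5 in T31-5 (95% interval 6.88 to 43.1), 28.8 in Col-0 (14.8 to 64.0) and 171 in the empty vector line (30.4 to 6800, on 1 read without salt). It was 0.929 (0.741 to 1.16) in T43-11. With a prior count of 2, the log2 ratios were 3.55 in T31-5, 5.95 in the empty vector line and 4.57 in Col-0, which ranked 7, 1 and 11 from the top of the 14797 genes. In each of these lines RNS1 was the only one of the 3 members at least 2-fold higher, where 2.44% (T31-5), 2.76% (empty vector) and 3.73% (Col-0) of genes were at least 2-fold higher. In T43-11 no member was, and 0.0% of genes were. A fit with line as a block gave a log2 fold change of 4.98 ± 0.40 (SE) over the 3 lines and 2.95 with T43-11 included. DESeq2 gave a wider SE over the 3 lines, with 5.03 ± 0.57.

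**Figure D1:**
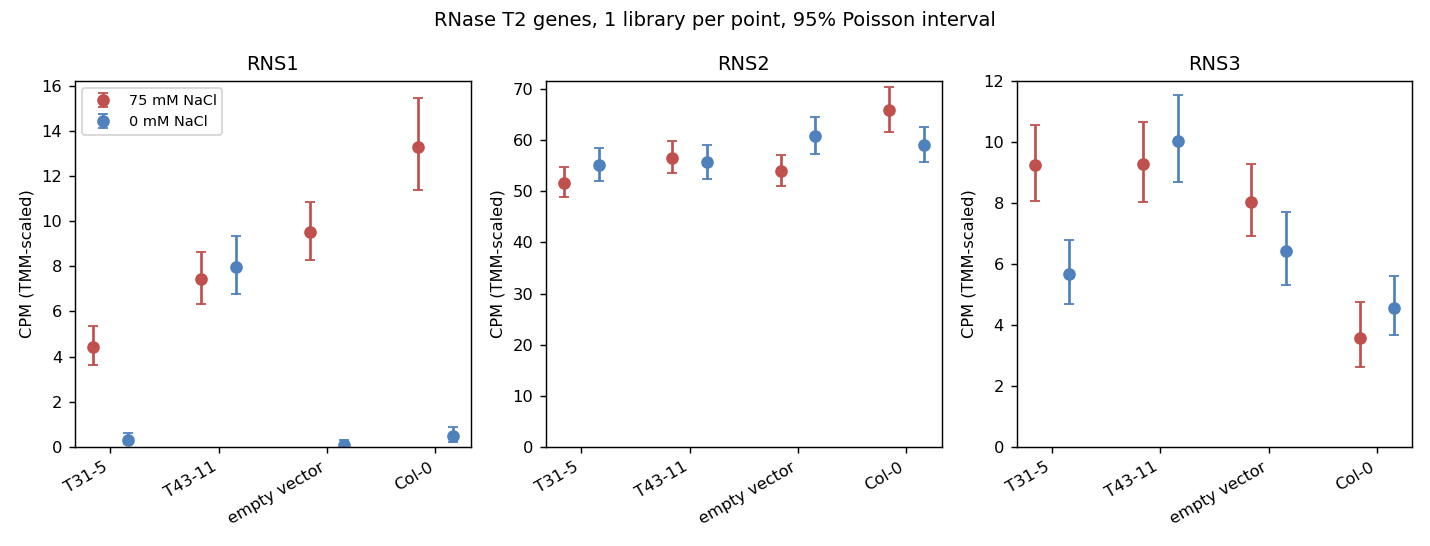
CPM of RNS1, RNS2 and RNS3 (vertical axes, TMM-scaled, each from 0) in the 4 lines at 75 mM (red, left) and 0 mM NaCl (blue, right), with 1 library per point and 95% Poisson intervals. RNS1 is near 0 in 3 unsalted libraries and at 4.42 to 13.3 CPM elsewhere, RNS2 stays between 51.7 and 66.0 CPM, and RNS3 is lowest in Col-0.

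**Figure D2:**
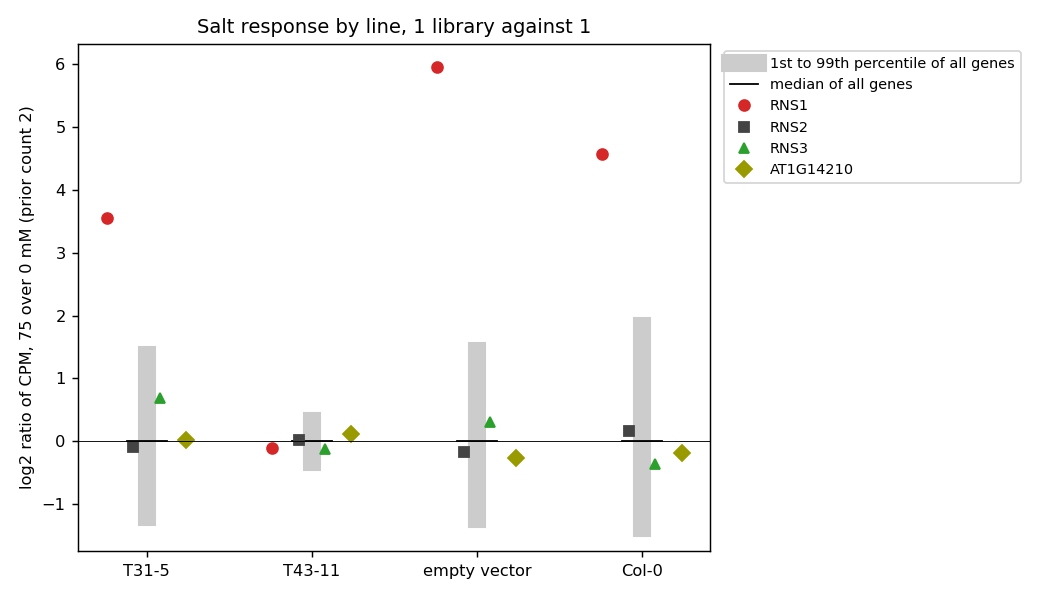
Log2 ratio of CPM at 75 over 0 mM (prior count 2) for 4 family genes in each line, beside the range from the 1st to the 99th percentile of all genes averaging 5 CPM or more (grey bars; black ticks, medians). RNS1 lies far above the bars in T31-5, the empty vector line and Col-0 and at -0.11 in T43-11, and the other genes lie within the bars.

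Among salt-treated plants RNS1 was highest in Col-0 and lowest in T31-5, with T43-11 and the empty vector line between them. The closest neighbours in this order were T43-11 and the empty vector line, with a ratio of 0.780 (95% interval 0.632 to 0.960), and the empty vector line had 0.716 times the CPM of Col-0 (0.583 to 0.879). T31-5 had 0.332 times the CPM of Col-0 (95% interval 0.259 to 0.426) and 0.465 times that of the empty vector line (0.365 to 0.588). Only 0.176% of genes were at least 2-fold lower in T31-5 than in the empty vector line at 75 mM, and 1.34% lower than in Col-0. T43-11 had 0.558 times the CPM of Col-0 (0.448 to 0.695) and 1.68 times that of T31-5 (1.31 to 2.16). Without salt, T43-11 exceeded T31-5 by 27.9 times (12.5 to 77.3) and Col-0 by 17.3 times (8.87 to 38.5), where 3.0% and 4.95% of genes were at least 2-fold higher. T31-5 at 0 mM had 5.15 times the CPM of the empty vector line, on 6 reads against 1, with an interval of 0.625 to 237 that includes 1. Each of these is 1 library against 1 and has no replicate check. In whole plants, fewer cells that express a gene and less RNA per cell cannot be told apart.

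RNS2 had the highest CPM of the family in every library, also per kb of coding sequence, and varied little. T31-5 had 51.7 CPM with salt and 55.2 CPM without, and T43-11 had 56.6 and 55.7 CPM. The empty vector line had 54.0 CPM with salt and 60.8 CPM without, and Col-0 had 66.0 CPM (61.6 to 70.5) and 59.1 CPM (55.7 to 62.6). The highest of the 8 libraries was 1.27 times the lowest, and the coefficient of variation over libraries was 7.77%. On the log2 scale the SD was 0.11 for RNS2, 0.53 for RNS3 and 2.50 for RNS1, at percentile 23.0, 93.3 and 99.97 of those 14797 genes. The ratio at 75 over 0 mM was 0.937 (0.864 to 1.02) in T31-5, 1.02 (0.936 to 1.10) in T43-11, 0.889 (0.818 to 0.965) in the empty vector line and 1.12 (1.02 to 1.22) in Col-0. The direction thus differed between lines. Over T31-5, the empty vector line and Col-0 the log2 fold change was -0.05 ± 0.08 (SE), near the median of 0.01 over all genes tested.

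RNS3 was lowest in Col-0 at both salt levels. T31-5 had 9.26 CPM (8.08 to 10.6) at 75 mM and 5.67 CPM (4.70 to 6.79) at 0 mM, and T43-11 had 9.29 CPM (8.06 to 10.7) and 10.1 CPM (8.69 to 11.6). The empty vector line had 8.03 CPM (6.91 to 9.28) at 75 mM and 6.44 CPM (5.32 to 7.73) at 0 mM. Col-0 had 3.56 CPM (2.60 to 4.74) at 75 mM and 4.57 CPM (3.67 to 5.62) at 0 mM. The 6 libraries of transgenic lines all lay above both Col-0 libraries, as they did for 7.02% of genes. With salt, CPM were 2.60 times those of Col-0 in T31-5 (1.89 to 3.66), 2.61 times in T43-11 (1.89 to 3.68) and 2.26 times in the empty vector line (1.63 to 3.19). The shares of genes at least 2-fold higher than in Col-0 were 2.49%, 2.24% and 1.72% in these lines. Without salt the ratio to Col-0 was 2.20 in T43-11 (1.70 to 2.86) and 1.41 in the empty vector line (1.06 to 1.88), and in T31-5 it was 1.24 with an interval that includes 1 (0.935 to 1.65). The ratio at 75 over 0 mM was 1.63 (1.30 to 2.06) in T31-5, 0.924 (0.756 to 1.13) in T43-11, 1.25 (0.982 to 1.59) in the empty vector line and 0.778 (0.533 to 1.12) in Col-0. The fitted log2 fold change over the 3 lines without T43-11 was 0.26 ± 0.20 (SE).

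Of the pair without names in RefSeq, AT1G14210 was well expressed and AT1G14220 was scarcely detected. AT1G14210 ranged from 21.3 to 29.5 CPM, and its log2 fold change with salt over the 3 lines, -0.16 ± 0.08, did not pass (edgeR adjusted p = 0.192). AT1G14220 had 3 to 10 reads per library, did not pass the filter on low counts and was not tested. The members have similar coding lengths, from 669 bases in RNS3 to 780 in RNS2, and levels between genes were compared as CPM per kb of coding sequence. On this scale RNS2 stood at 66.3 to 84.6, above 87.4 to 89.4% of tested genes, in every library. RNS1 stood at 19.2 in Col-0 at 75 mM, above 60.6% of tested genes, and at 0.667 in Col-0 at 0 mM, above 8.04%.

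RNS1 made up a visible share of the family transcripts only in the libraries where it was high. Per kb of coding sequence it accounted for 5.05% at 75 mM and 0.35% at 0 mM in T31-5, 8.14 and 8.87% in T43-11, 10.8 and 0.06% in the empty vector line, and 13.9 and 0.57% in Col-0. As a share of family reads it was 12.8% in Col-0 at 75 mM (95% Wilson interval 11.1 to 14.6) and 0.522% at 0 mM (0.275 to 0.989). RNS2 held 52.5 to 65.3% of the family per kb in every library. The summed CPM of the 5 genes was highest in Col-0 at 75 mM, with 104, and lowest in Col-0 at 0 mM, with 88.5. RNS3 contributed 10.9% in T31-5 and 3.85% in Col-0 at 75 mM.

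**Figure D3:**
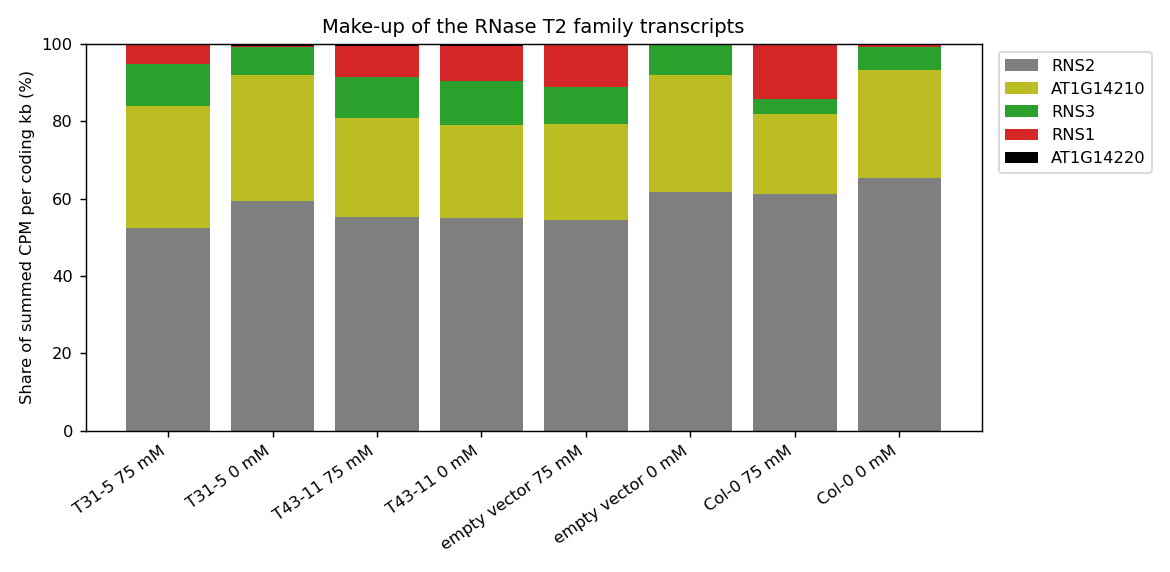
Share of each RNase T2 gene in the summed CPM per coding kb of the family (vertical axis, %), 1 bar per library. RNS2 is the widest band in every bar, and the RNS1 band is 5.05 to 13.9% in the 5 libraries where the gene was high and under 1% in the unsalted libraries of T31-5, the empty vector line and Col-0.

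Both 3F-VP16 lines were then compared with both control lines to ask whether the fusion went with another level of these genes. This contrast is other than the salt response that chose them, though it draws on the same libraries. No gene passed in any of 3 such fits, over both salt levels and at each of them (edgeR, 0.0% called). With both salt levels summed per line, 845 genes had an unadjusted p under 0.05, and DESeq2 called 28 genes (0.136%). RNS3 had a log2 difference of 0.57 ± 0.29 (SE), RNS2 of -0.12 ± 0.09, RNS1 of -0.11 ± 0.50 and AT1G14210 of 0.14 ± 0.13 (edgeR adjusted p = 0.700, 0.716, 0.952 and 0.749). For RNS1 the 2 lines of the class pulled apart. Its difference was 0.48 without T31-5 and -1.13 without T43-11.

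By salt level, RNS1 was 3.92 ± 1.46 log2 units higher in the 3F-VP16 lines at 0 mM and -0.94 ± 0.98 at 75 mM, and neither passed (edgeR adjusted p = 0.587 and 0.999). These fits held 1093 and 731 genes at an unadjusted p under 0.05. The RNS1 levels in them are also parts of the salt response that chose the gene, so its values are not independent evidence. The value at 0 mM rests on T43-11, since T31-5 had 0.286 CPM, against 0.0555 CPM in the empty vector line and 0.462 CPM in Col-0. At 75 mM both 3F-VP16 libraries lay below both control libraries for RNS1, as for 24.8% of genes, and above them for RNS3, as for 18.8%. RNS3 had 0.51 ± 0.41 at 0 mM and 0.64 ± 0.41 at 75 mM (edgeR adjusted p = 0.634 and 0.999), and RNS2 had -0.11 ± 0.12 and -0.15 ± 0.12 (edgeR adjusted p = 0.706 and 0.999). The salt response of the 3F-VP16 lines minus that of the control lines was -4.26 ± 1.53 for RNS1, -0.03 ± 0.17 for RNS2 and 0.27 ± 0.39 for RNS3. These differences are built from the salt responses that chose the genes and are given without a test, and the value for RNS1 mixes log2 ratios of 3.55 in T31-5 and -0.11 in T43-11.

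The genes whose pattern lay nearest to RNS1 were low in the same 3 libraries, which follows from how they were picked. Likeness was the root mean square distance of log2 CPM, centred per gene, over the 8 libraries, which include the 2 close pairs. The nearest was the thioredoxin gene TH8 (AT1G69880), at 0.51 log2 units, where the median of all 14794 genes compared was 2.34. It had 23.97 and 1.57 CPM in T31-5 at 75 and 0 mM, 37.4 and 39.2 CPM in T43-11, 52.8 and 1.89 CPM in the empty vector line, and 69.0 and 1.90 CPM in Col-0. Like RNS1 it was highest in Col-0 and lowest in T31-5 among salt-treated plants. Next came the small peptide gene RTFL21 at 0.71, the transporter gene AT2G16660 at 0.78, CORI3, a jasmonate-responsive cystine lyase gene, at 0.80, the defensin-like gene AT3G59930 at 0.80, the lipid transfer protein gene LTP2 at 0.86 and the beta-glucosidase genes DIN2 and BGLU45 at 0.88 and 0.89. AT2G16660 had 213 CPM in T31-5 and 206 CPM in Col-0 at 75 mM and so lacked the difference between those lines. Without the T43-11 libraries 7 of the 8 genes remained. Of the 300-base windows before these 8 genes, 1 held ACGTG, 2 CCGAC, 3 TTGAC and 3 GNATATNC. Among all windows the shares were 25.6%, 13.9%, 50.4% and 6.50%, and no excess was tested.

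RNS3 lay nearest to a group of genes that, by the same choice, were low in Col-0 and high in T43-11 and in salt-treated T31-5. These were DR4, a gene repressed by drought, at 0.09 log2 units, XCP1, a cysteine protease gene of xylem vessels, at 0.09, the lipase-like gene AT2G23540 at 0.10 and the lectin gene AT2G25980 at 0.10, where the median gene was at 0.53. XCP1 had 24.7 and 13.5 CPM in T31-5 at 75 and 0 mM, 24.5 and 22.8 CPM in T43-11, 21.4 and 15.0 CPM in the empty vector line, and 8.89 and 10.5 CPM in Col-0. The summed level of 8 xylem vessel genes was 128 and 88.4 CPM in T31-5 at 75 and 0 mM, 122 and 127 CPM in T43-11, 115 and 96.5 CPM in the empty vector line, and 60.2 and 78.0 CPM in Col-0. The part of vessel tissue in the RNS3 level was not tested. RNS2 lay nearest to AT5G18390, the SUMO-activating enzyme gene SAE1A, AT5G49840 and AVA-P4, a subunit gene of the vacuolar proton pump, each at 0.03. For this nearly flat gene the median of all genes was itself only 0.19. Without T43-11 only 1 of the 4 genes nearest to RNS2 remained, and 2 of the 4 for RNS3.

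**Figure D4:**
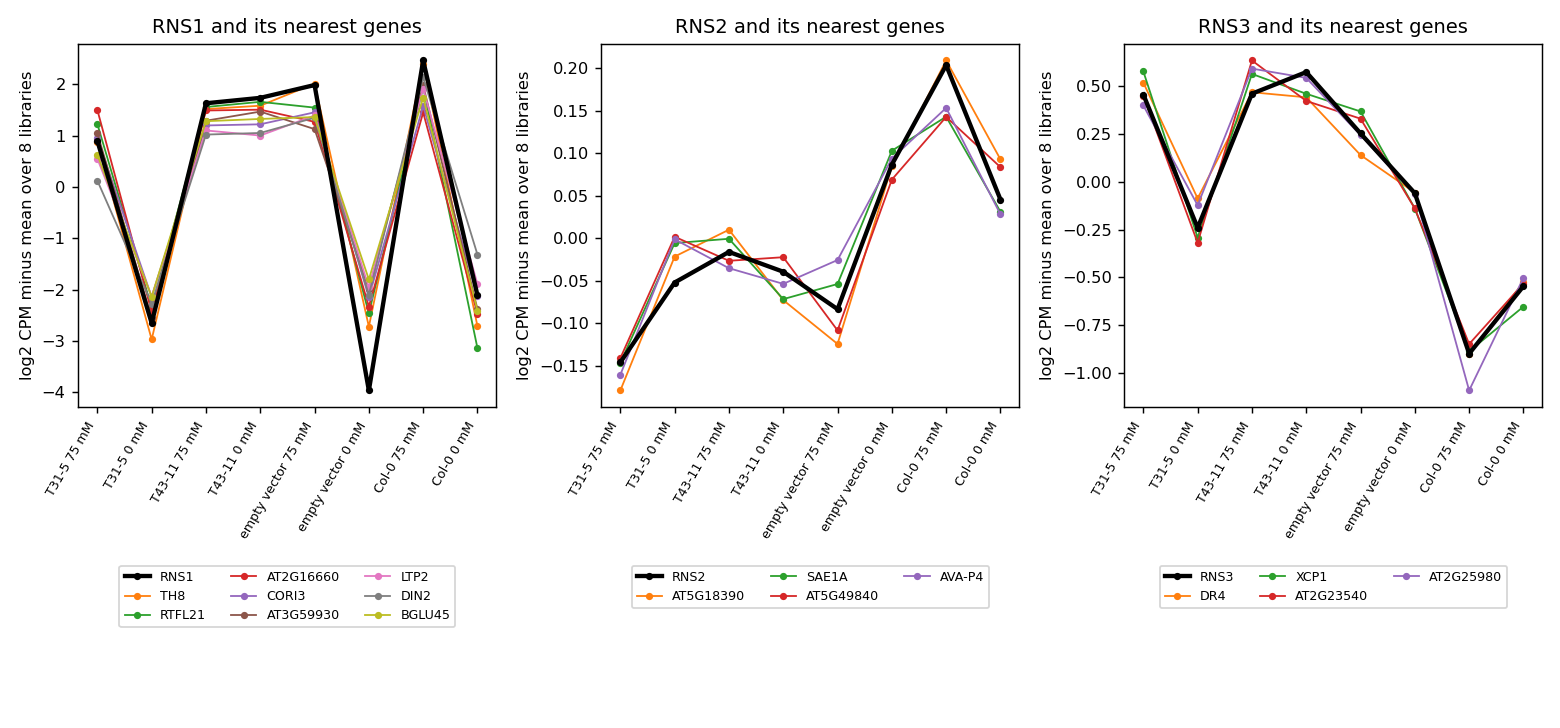
Log2 CPM minus the mean over the 8 libraries (vertical axes) for RNS1, RNS2 and RNS3 (black) and the genes nearest to each in pattern (colours), with libraries side by side and lines drawn only to guide the eye. RNS1 and its neighbours are low in 3 unsalted libraries, RNS2 is nearly flat, and RNS3 is lowest in both Col-0 libraries.

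Genes of processes linked to these enzymes were then tested for their salt response in T31-5, the empty vector line and Col-0 (edgeR with line as a block), where 14.4% of the 20585 genes rose and 15.4% fell at an adjusted p under 0.05. Of 105 tested genes of the 8 lists, 28 rose and 8 fell. Without the empty vector line these counts were 13 and 4, and with T31-5 and the empty vector line summed as 1 line they were 21 and 8. The shares of all genes called in these alternatives are not given, so these counts do not show an excess in the lists. With T43-11 included no gene of the lists passed, as no gene did at all (edgeR, 0.0% called). In that fit 6006 genes, 37 of them in the lists, had an unadjusted p under 0.05.

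Phosphate starvation genes, with which RNS1 is usually grouped, moved in both directions. Of 23 tested, 6 rose and 5 fell, beside 14.4% and 15.4% of all genes, with a median log2 fold change of 0.15. The high-affinity phosphate transporter genes PHT1;1, PHT1;2 and PHT1;4 rose by 0.68 ± 0.07, 0.71 ± 0.12 and 0.91 ± 0.16 (SE; adjusted p = 0.00116, 0.0068 and 0.00797), and as close copies PHT1;1 and PHT1;2 may share reads. The pyrophosphatase gene PS2, at 2.52 ± 0.46, and the phospholipase gene NPC4, at 1.33 ± 0.33 (adjusted p = 0.0104 and 0.0289), also rose. They averaged 1.54 and 3.01 CPM, under the limit for naming, and are named after their values were seen. PHO1;H1, a relative of the phosphate exporter gene PHO1, fell by 1.89 ± 0.11 (adjusted p = 0.000429), the phosphate starvation transcript AT5G03545 by 1.55 ± 0.25 and the acid phosphatase gene PAP10 by 0.72 ± 0.07. The other genes of the list that passed had smaller changes and are also named outside the rule. PHO2 rose, at 0.28 ± 0.07, and G3Pp1 and the regulator gene PHR1 fell, at -0.50 ± 0.09 and -0.43 ± 0.08. PHO1;H1 had 11.4 and 34.8 CPM in T31-5 at 75 and 0 mM, 7.83 and 8.45 CPM in T43-11, 8.25 and 36.4 CPM in the empty vector line, and 10.1 and 36.9 CPM in Col-0. The summed level of the list was 691 to 752 CPM in the 5 libraries with high RNS1 and 739 to 824 CPM in the other 3.

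Genes of the wound, jasmonate and abscisic acid responses rose more often than they fell. Of all genes 14.4% rose and 15.4% fell, and no excess in these short lists was tested. Of 12 wound and jasmonate genes 5 rose and 0 fell (median 0.56). LOX2, a lipoxygenase of jasmonate synthesis, rose by 3.56 ± 0.42, CORI3 by 3.46 ± 0.14 and the storage protein gene VSP2 by 1.65 ± 0.26 (adjusted p = 0.00976, 0.000368 and 0.0174). LOX2 had 706 and 101 CPM in T31-5 at 75 and 0 mM, 779 and 768 CPM in T43-11, 1060 and 98.9 CPM in the empty vector line, and 1181 and 50.5 CPM in Col-0, and it too was lowest in T31-5 among salt-treated plants. Of 12 abscisic acid response genes 6 rose and 1 fell (median 0.34). LTI78 (also known as RD29A) rose by 2.83 ± 0.11, RD20 by 1.92 ± 0.09 and RD22 by 1.24 ± 0.06, and the dehydrin gene RAB18 fell by 1.008 ± 0.22. LTI78 had 33.6 CPM in T31-5, 52.7 CPM in T43-11, 39.5 CPM in the empty vector line and 34.6 CPM in Col-0 at 75 mM, and was thus highest in T43-11 rather than in Col-0.

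Among other enzymes of RNA and nucleotide turnover 5 genes rose and 0 fell, beside 14.4% and 15.4% of all genes. Of 9 further nucleases, which include exoribonucleases, S1-type nucleases and a vacuolar phosphatase, 2 rose and 0 fell (median 0.27). These were the cytoplasmic exoribonuclease gene XRN4, at 0.25 ± 0.07, and, named although its mean of 2.87 CPM is under the limit for naming, ENDO2 at 1.09 ± 0.25. Of 11 genes of nucleoside and base salvage 3 rose and 0 fell (median 0.19). The uridine hydrolase gene URH2 rose by 0.69 ± 0.12, the adenosine kinase gene ADK1 by 0.58 ± 0.07 and the adenine phosphoribosyltransferase gene APT1 by 0.40 ± 0.06. Of 21 autophagy genes, whose products deliver cell content, ribosomes included, to the vacuole where RNS2 acts, 3 rose and 1 fell (median 0.03). The receptor gene NBR1 rose by 0.62 ± 0.08 and the ATG8 genes ATG8D and ATG8H by 0.71 ± 0.13 and 0.57 ± 0.09, and the kinase gene AT2G37840 fell by 0.31 ± 0.07. NBR1 had 296 and 205 CPM in T31-5 at 75 and 0 mM, 326 and 314 CPM in T43-11, 309 and 211 CPM in the empty vector line, and 324 and 183 CPM in Col-0.

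Of 9 leaf senescence genes 3 rose and 1 fell (median 0.38), beside 14.4% and 15.4% of all genes. The catalase gene CAT3 rose by 0.98 ± 0.16, the chlorophyll breakdown genes PPH and ACD1 by 0.44 ± 0.08 and 0.38 ± 0.10, and the senescence regulator NAP fell by 1.09 ± 0.08. None of the 8 xylem vessel genes passed (edgeR, median 0.25; 0 at an unadjusted p under 0.05, and 0 by DESeq2), and XCP1 had 0.42 ± 0.20 and the metacaspase gene MC9 0.33 ± 0.17 (adjusted p = 0.186 and 0.194). Of markers of plant parts, 2 of 4 root genes rose, 2 of 3 tested flower genes fell, and of 3 leaf genes 1 rose and 2 fell. The 4 root markers together had 1561 to 2282 CPM in the 5 high-RNS1 libraries and 1213 to 1295 CPM in the other 3. Taken singly, 22.9% of genes averaging 5 CPM or more were split in this direction. Most of the root marker sum was PYK10, which had 1190 to 2216 CPM. In the same 5 and 3 libraries the 4 flower markers had 2.93 to 16.4 and 11.2 to 20.7 CPM. The 3 leaf markers had 24138 to 26498 and 28086 to 29833 CPM, and the share of all genes split in that direction is not given. AP1 and AG, which define floral organs, were at 0 in at least 1 library. The part of tissue make-up in the RNS1 level was not tested.

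**Figure D5:**
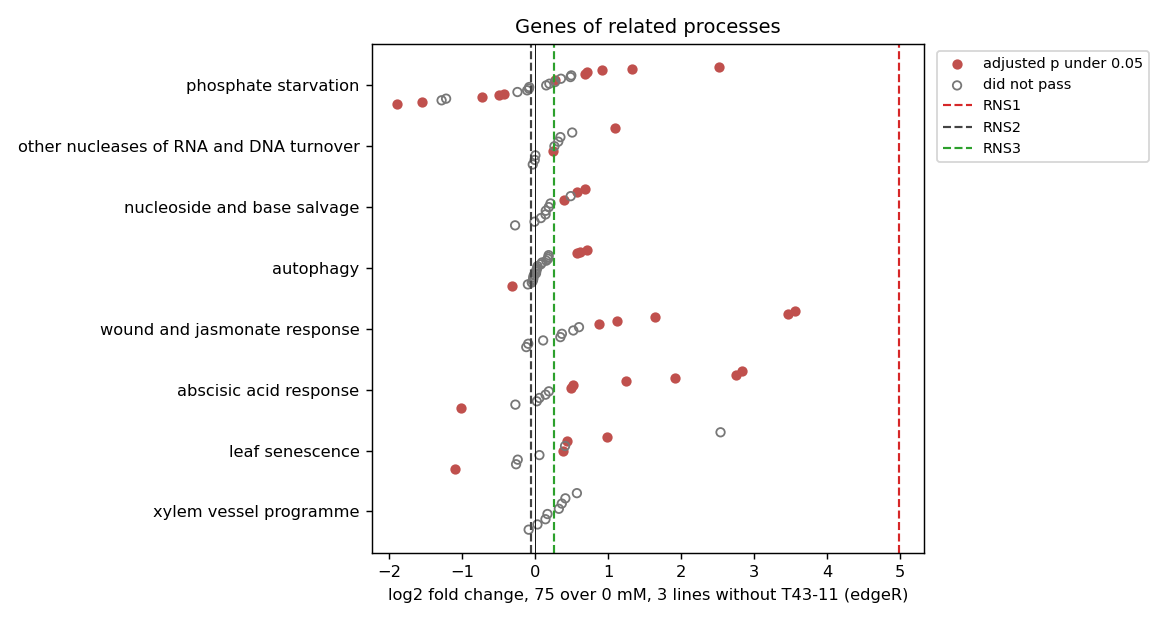
Log2 fold change at 75 over 0 mM in the fit of T31-5, the empty vector line and Col-0 (horizontal axis) for each tested gene of 8 lists (rows), filled where the adjusted p is under 0.05, with dashed lines at the fitted values of RNS1, RNS2 and RNS3. RNS1 at 4.98 lies to the right of every gene shown, of which LOX2 at 3.56 is the nearest.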

How the data were processed

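Total RNA from whole plants had been sequenced in 8 libraries. Raw counts were deposited by the authors for each library. Reads had gone through TopHat2 2.0.5 and HTSeq with build TAIR10, per the submitters' processing notes. Of the counting mode, strand setting and annotation release the sources used here say nothing. In TAIR 10.1 no annotated gene overlaps RNS1, RNS2 or RNS3. The 5 summary rows (2.49 to 2.60% of reads) and 2 added rows (T31 and T43) entered neither library sizes nor tests. RefSeq TAIR 10.1 gave names for 31912 of 32678 identifiers, coding lengths and upstream windows.

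edgeR 4.0.16 (R 4.3.3, TMM, robust quasi-likelihood) tested the deposited counts of 20585 genes that reached 0.468 CPM, or 10 counts at median depth, in 2 libraries or more, Benjamini-Hochberg adjusted over all of them at 0.05. The salt fit blocked by line, which pairs the salt levels because both libraries come from 1 line. Lines were the replicates of a class and were summed over salt levels, or fitted as class by salt. The labels name no separate plants, so p-values measure the spread between these libraries. DESeq2 1.42.0 was an alternative. Single libraries were compared by CPM ratios with exact intervals at 95%, or log2 ratios with a prior count of 2. Tables and figures were made in Python 3.11.15 (pandas 2.3.3, scipy 1.17.1, matplotlib 3.10.9). The members, lists and tests were chosen with earlier results of these data known. Genes named per list were at most 3 risers and 3 fallers by size of change, from those that passed, averaged 5 CPM or more and moved 1 way in the 3 lines, or otherwise the 2 with the smallest p, and for likeness the 8 nearest to RNS1 and 4 to RNS2 and RNS3.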

Additional observations from a re-analysis of the deposited data

Results flagged for a closer look

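At 0 mM the RNS1 level of T43-11, 7.99 CPM, stood apart from that of the other 3 lines, which had 0.0555 to 0.462 CPM. Its gap to the nearest library was 0.949 of the range of the 4 libraries, above Dixon's limit for 4 values. Chance passes this limit in about 1 of 20 groups, where a group is the 4 libraries of 1 gene at 1 salt level. The groups covered 5 genes at 2 salt levels, and each gave a gap at both ends of its range. Of these 20 gaps only this one passed. The low unsalted RNS1 level of the other 3 lines is part of the salt response that chose the gene, so the gap is a description and not independent evidence. T43-11 at 0 mM was close to its own 75 mM library over all genes. It was also closer to the salt-treated libraries of the other lines than to their unsalted ones, and no cause was tested.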

How the results depend on the processing

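The log2 salt response of RNS1 over 3 lines, 4.98, moved beyond the spread between lines in 1 alternative, to 2.95 with all 4 lines, and leaving out single lines gave 4.45 to 5.45. RNS2 ranged from -0.16 to 0.02 and RNS3 from 0.01 to 0.49 without single lines, and no alternative moved them beyond that spread. With no replicate block RNS1 was at 4.99, and the lists had 27 risers and 7 fallers instead of 28 and 8. The list counts fell to 0 and 0 with all 4 lines and ranged from 13 to 36 and from 4 to 11 without single lines. Apart from the fit with all 4 lines, the share of all genes called in these alternatives is not given. The class difference of RNS1, -0.11, turned to 3.91 with the 0 mM libraries alone and to 0.48 without T31-5, and ranged from -1.13 to 0.48 without single lines, never passing (edgeR or DESeq2). In a fit that leaves a class with 1 line, that line is assumed to vary like the others. The 6 to 9 reads of RNS1 in unsalted T31-5 and Col-0, and 1 in the empty vector line, limit the precision of its ratios.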
